A study of Oryza sativa with 16 samples.

Results

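The results below describe 100 neighbouring gene loci of rice chromosome 11 in the flag leaf, from LOC_Os11g32510 to LOC_Os11g35040 in the order of their locus numbers. The members were all rows of the count table in that range with at least 10 counts summed over the 16 libraries. The range held 202 rows, of which 100 reached that minimum, 28 had 1 to 9 counts and 74 had none. The members were 100 of the 28283 loci tested, and 100 of the 1748 tested on chromosome 11. The block was selected because DTY-IL and Swarna differed there in these same libraries, so its members were chosen by their genotype differences, which are given as a description with no p-value. Of the 100 members, 70 had at least 10 counts in each genotype, 9 had them only over the DTY-IL libraries, 11 only over the Swarna libraries, and 10 in neither genotype alone. The 9 and 11 members passed the minimum through 1 genotype, so their difference is partly set by the rule.

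Swarna is a drought-sensitive rice cultivar and the recurrent parent of the cross. DTY-IL is a single drought-tolerant introgression line that carries fragments of the donor N22 in the Swarna background, so it stands for 1 combination of donor fragments. Both were grown in a greenhouse, in pots set out as randomized complete blocks. The control plants were well-watered, and reproductive-stage drought stress (RDS) was imposed from stage R2 by withholding water until the soil held 75% and later 50% of field capacity. Flag leaves were sampled at stage R3 on day 12 of the stress. Each genotype had a control group and a drought group, which makes 4 groups of 4 libraries, described by the submitters as independent biological replicates.

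In a backcrossed introgression line most of the genome comes from the recurrent parent and a few chromosome segments come from the donor. Inside a donor segment the alleles of the donor replace those of the recurrent parent in every cell, so that neighbouring genes can differ from the parent together and in both directions, through their own promoters, through deletions or duplications, or through sequence that matches a reference less well. Chromosome 11 of rice is known for clusters of disease resistance genes, families whose copies vary in number and sequence between cultivars. The deposited table gives locus identifiers without gene names and 0 of the 100 members matched the gene table at hand, so each member is described by its identifier and no function is assigned to any of them. For the same reason the flag-leaf origin was not checked against named leaf genes. The text of the study places the N22 fragments it names on other chromosomes, and whether the block holds N22 alleles was not analysed here. The reads of both genotypes had been assigned to transcripts of a japonica reference, and a transcript that is not made cannot be told apart from an allele whose reads do not match that reference.

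Library totals ranged from 14250527 to 19367077 counts. The members took 0.130% to 0.292% of the counts of a library, and between 77 and 94 of the 100 members had at least 1 count in a given library. Levels are given as CPM, the counts of a locus scaled to a common library size by TMM, and differences are fitted log2 changes from edgeR with their standard errors (SE). A locus was called when its adjusted p was at most 0.05 and its absolute log2 change at least 1, and where no library of a group exceeded 3 counts the fold against it is a lower bound. Many members were weakly counted, with a mean of at least 50 counts per library for 58 of them, 10 to under 50 for 12 and under 10 for 30. At the 3 loci nearly empty in DTY-IL (LOC_Os11g34880, LOC_Os11g34920 and LOC_Os11g34970) every DTY-IL library held at most 1 count, and at the 4 nearly empty in Swarna (LOC_Os11g34770, LOC_Os11g34790, LOC_Os11g34810 and LOC_Os11g34820) every Swarna library held at most 3. No library went against its genotype label at these 7 loci, which were selected on that difference.

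The differences between DTY-IL and Swarna were concentrated near the end of the block. Under control 18 of the 100 members were called, 11 higher and 7 lower in DTY-IL, beside 5.11% of all tested loci (2.99% higher and 2.12% lower). Under RDS 18 were again called, 11 higher and 7 lower, beside 6.59% of all loci (4.2% higher and 2.39% lower). The calls of both treatments fell in the same direction at 14 members, of which 8 were higher in DTY-IL and 6 lower, where the shares over all loci were 0.813% and 0.679%. All 8 DTY-IL libraries lay above all 8 Swarna libraries at 10 members and below them at 7, beside 0.806% and 0.721% of all loci. LOC_Os11g32590, counted among the 7 and among the 6, held 0 counts in DTY-IL and 1 to 3 per Swarna library, which shows no fold. Since these contrasts selected the block, nothing is read from its excess over those shares. A further 4 members were called under control alone and 4 under RDS alone, where the shares over all loci were 3.39% and 4.87%. In neither treatment were 78 called, and 0 in opposite directions.

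**Figure D1:**
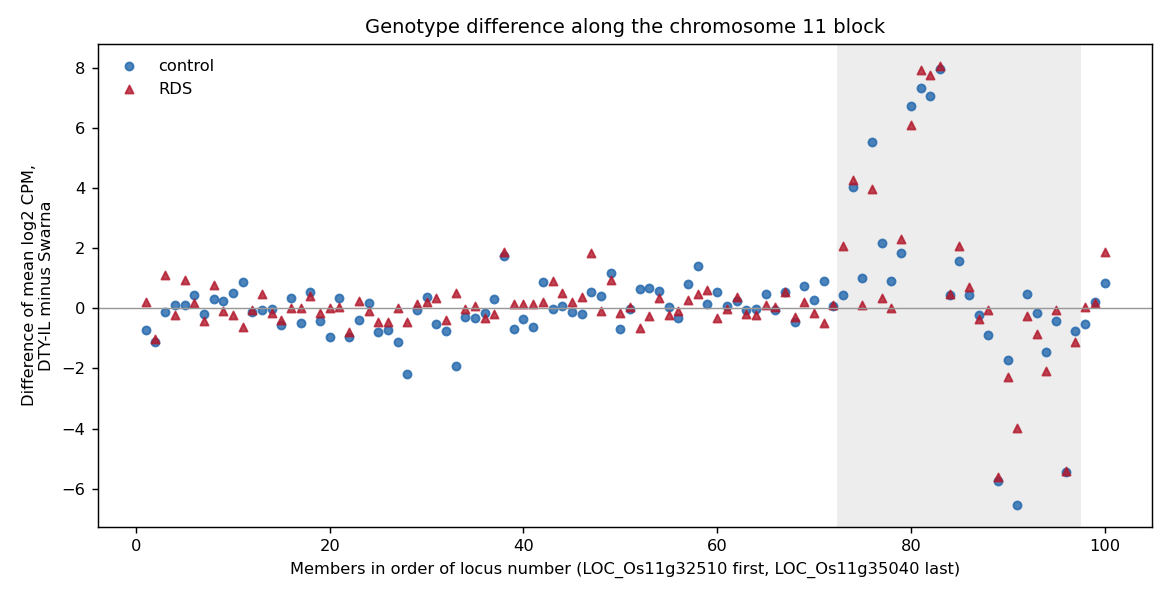
Difference of mean log2 CPM, DTY-IL minus Swarna (prior count 2, 4 libraries a group), for the 100 members in order of locus number, with circles for control and triangles for RDS. The shaded stretch holds the 25 members from LOC_Os11g34624 to LOC_Os11g34980, where points reach about 8 above and 6 below 0, and most points to its left lie within 2 of 0.

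The plot of differences in locus order shows 3 stretches, whose ends were chosen after the values were seen. The 72 members before LOC_Os11g34624 held 4 calls under control and 2 under RDS, with the weakly counted LOC_Os11g32590 in both. Their median absolute fitted difference was 0.57 and 0.37 on the log2 scale. The next 25 members, from LOC_Os11g34624 to LOC_Os11g34980, held 14 and 15 calls, 13 of them shared by both treatments, and their median absolute differences were 2.94 and 2.21. The last 3 members held 0 and 1. The median absolute difference over all tested loci was 0.36 under control and 0.33 under RDS. Fitted differences of loci with nearly empty groups depend on the prior count. With such loci placed at their lower bound, or at 0 where both groups were nearly empty, the medians became 1.71 and 2.13 for the 25 members, 0.30 and 0.19 for the first 72, and 0.24 under both treatments over all loci.

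Within the 25 members the direction of the calls changed once along the chromosome. From LOC_Os11g34624 to LOC_Os11g34840, 9 of 13 members were called in each treatment, every one of them higher in DTY-IL. From LOC_Os11g34850 to LOC_Os11g34980, 5 of 12 members were called under control and 6 under RDS, every one of them lower in DTY-IL. The 8 DTY-IL libraries lay apart from the 8 Swarna libraries at 15 of the 25, of which 12 stood next to another with the same direction and 3 (LOC_Os11g34650, LOC_Os11g34690 and LOC_Os11g34950) stood alone. LOC_Os11g34760 to LOC_Os11g34820 formed a run of 5 consecutive members with DTY-IL above, and LOC_Os11g34880 to LOC_Os11g34920 a run of 3 with DTY-IL below. LOC_Os11g34840 and LOC_Os11g34850 formed a pair above, of which LOC_Os11g34850 was not called, and LOC_Os11g34970 and LOC_Os11g34980 a pair below. The counts of the 13 members summed to between 131 and 187 CPM in the DTY-IL libraries and to between 6.86 and 16.6 CPM in the Swarna libraries. Over the 12 members the DTY-IL libraries ranged from 100 to 171 CPM and the Swarna libraries from 181 to 261 CPM.

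Of the 7 members named as higher in DTY-IL, 4 were nearly empty in Swarna and well counted in DTY-IL under both treatments. LOC_Os11g34820 had 45.4, 49.8, 57.2 and 45.3 CPM in the DTY-IL control libraries and 31.1, 53.3, 32.0 and 34.2 CPM under RDS. The 8 Swarna libraries held 0 to 2 counts of it. Its level in DTY-IL was at least 224-fold higher under control and at least 249-fold higher under RDS.

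LOC_Os11g34790 had 32.6, 35.1, 36.0 and 30.4 CPM in DTY-IL under control and 26.7, 39.2, 38.9 and 31.8 CPM under RDS, against 0 to 2 counts per Swarna library. It was at least 152-fold and 226-fold higher in DTY-IL under control and RDS. LOC_Os11g34810 had 25.4, 24.2, 31.3 and 23.7 CPM in DTY-IL under control and 25, 36.9, 29.6 and 33.2 CPM under RDS, with 0 to 3 counts per Swarna library, and was at least 119-fold and 206-fold higher. All 3 loci thus were well counted in every DTY-IL library and nearly empty in Swarna. No call for drought was made at any of them in DTY-IL. None was made in Swarna either, where 0 to 3 counts per library say little about drought.

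LOC_Os11g34770 held no count in any Swarna library. In DTY-IL it had 13.0, 12.1, 8.78 and 18.2 CPM under control and 7.21, 9.03, 9.94 and 6.49 CPM under RDS, which is at least 59.1-fold and 54.0-fold more. The 2 DTY-IL groups overlapped, and the fitted drought change of −0.67 (SE 0.24) missed the fold threshold (edgeR adjusted p = 0.0440). Empty in every Swarna library as well were LOC_Os11g34624, LOC_Os11g34650 and LOC_Os11g34660. Of these LOC_Os11g34650 had 1.79 to 1.88 CPM in DTY-IL under control and 1.61 to 2.96 CPM under RDS, at least 8.37-fold and 14.8-fold higher, whereas the other two had at most 13 and 5 counts in a library.

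The remaining members named here as higher in DTY-IL had counts in both genotypes. At LOC_Os11g34690 the Swarna control libraries held only 5, 1, 1 and 2 counts, so its fitted difference under control rests on few Swarna counts. LOC_Os11g34690 had 11.6, 13.0, 14.6 and 8.63 CPM in DTY-IL under control and 0.315, 0.0791, 0.0732 and 0.158 CPM in Swarna control, a fitted log2 difference of 6.13 (SE 0.34) that was 6.77 without Swarna control 1. Under RDS it had 15.9, 20.1, 21.7 and 18.6 CPM in DTY-IL and 1.15, 1.37, 1.33 and 0.671 CPM in Swarna, a log2 difference of 4.07 (SE 0.25). The groups were far apart in both treatments, with the narrower fitted gap under RDS.

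LOC_Os11g34760 had 6.64, 5.50, 6.38 and 4.61 CPM in DTY-IL control against 1.76, 2.14, 1.76 and 0.789 CPM in Swarna control. Under RDS the values were 7.76, 6.35, 6.58 and 7.86 CPM against 1.49, 1.52, 0.960 and 1.55 CPM. DTY-IL was 3.57-fold higher under control and 5.15-fold under RDS, with no overlap. LOC_Os11g34840 showed a gap of similar size, with 3.04, 1.99, 4.16 and 2.60 CPM in DTY-IL under control and 3.66, 3.33, 2.92 and 3.25 CPM under RDS, and 0.567, 0.870, 1.24 and 0.947 CPM in Swarna under control and 0.768, 0.782, 0.693 and 0.568 CPM under RDS. Its fitted fold was 3.26 under control and 4.63 under RDS.

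**Figure D2:**
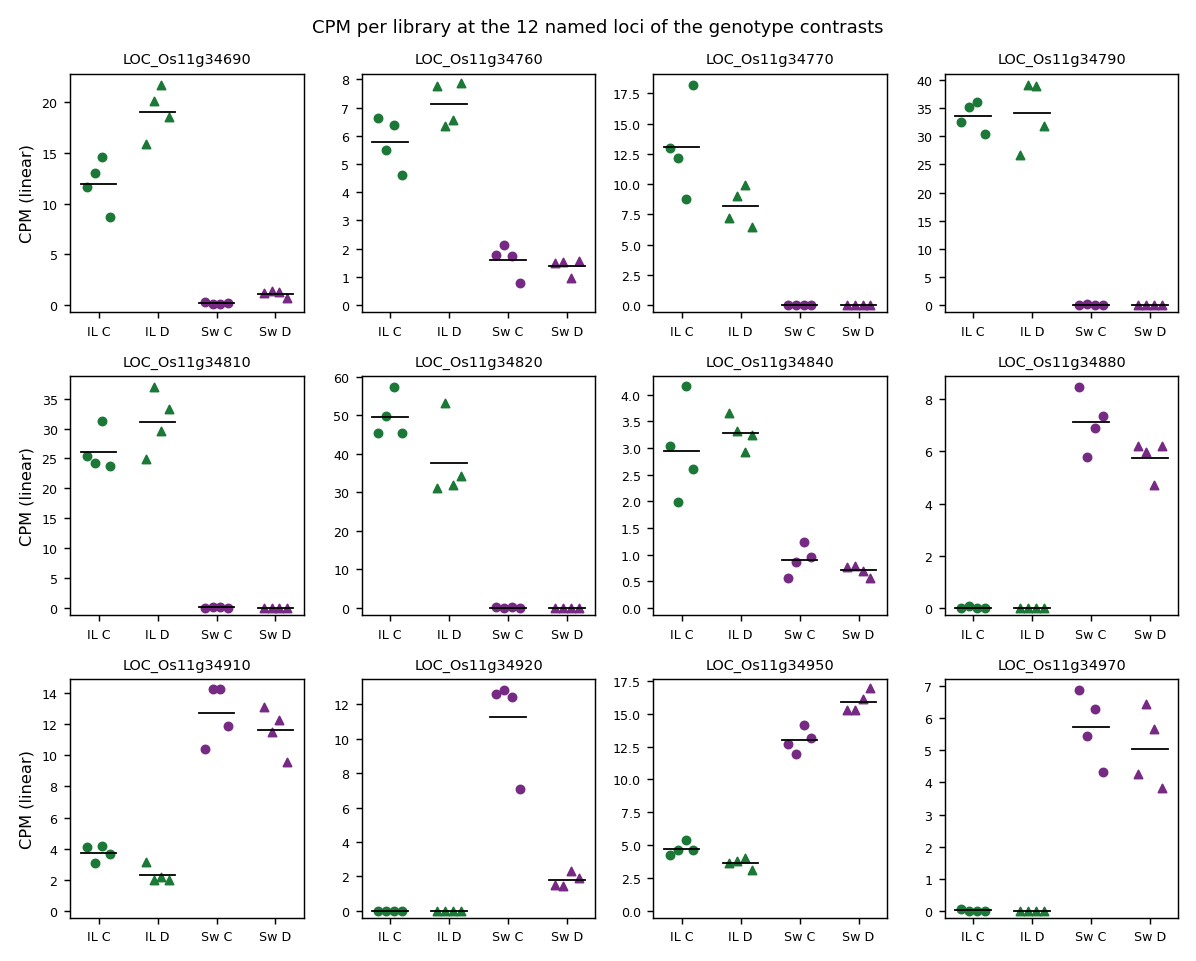
CPM on a linear axis in every library at the 12 loci named for their genotype difference, 1 point a library, with bars at the mean of the 4 libraries. IL C and IL D are DTY-IL control and drought, Sw C and Sw D are Swarna control and drought; DTY-IL lies above Swarna in 7 panels and below it in 5, and no DTY-IL point reaches a Swarna point in any panel.

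LOC_Os11g34880 had 8.45, 5.78, 6.88 and 7.34 CPM in Swarna under control and 6.19, 5.96, 4.69 and 6.19 CPM under RDS. In DTY-IL 1 count was found in 1 of the 8 libraries, so that the level was at least 35.5-fold lower under control and at least 35.0-fold lower under RDS. LOC_Os11g34970 had 6.87, 5.46, 6.29 and 4.34 CPM in Swarna under control and 4.27, 6.45, 5.65 and 3.82 CPM under RDS, again with a single count in DTY-IL, and was at least 28.7-fold and 30.6-fold lower there. The nearly empty genotype was DTY-IL at both, where at the 4 loci above it was Swarna.

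LOC_Os11g34920 held no count in DTY-IL. Swarna had 12.6, 12.8, 12.4 and 7.10 CPM under control, at least 56.2-fold more than DTY-IL, and 1.49, 1.47, 2.35 and 1.91 CPM under RDS, at least 10.9-fold more. The 4 drought libraries of Swarna all lay below its 4 control libraries, and the fitted log2 change was −2.64 (SE 0.27, edgeR adjusted p = 6.56e-06). LOC_Os11g32590, LOC_Os11g33080, LOC_Os11g33170 and LOC_Os11g33180 were empty in DTY-IL too, but none exceeded 24 counts in a Swarna library. LOC_Os11g33080 had its counts in 2 Swarna libraries only, 24 in control 1 and 18 in drought 4.

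The other two members named here as lower in DTY-IL were expressed in both genotypes. LOC_Os11g34910 had 4.08, 3.05, 4.16 and 3.65 CPM in DTY-IL under control and 3.11, 1.96, 2.19 and 1.99 CPM under RDS, against 10.4, 14.2, 14.3 and 11.9 CPM in Swarna under control and 13.1, 11.5, 12.3 and 9.60 CPM under RDS. It was 3.39-fold lower in DTY-IL under control and 5.0-fold lower under RDS. LOC_Os11g34950 had 4.22, 4.64, 5.42 and 4.61 CPM in DTY-IL under control and 3.61, 3.80, 3.99 and 3.13 CPM under RDS, and 12.7, 11.9, 14.1 and 13.2 CPM in Swarna under control and 15.3, 15.3, 16.2 and 16.9 CPM under RDS. The fold was 2.74 under control and 4.37 under RDS. At this locus the drought libraries lay below the control libraries in DTY-IL and above them in Swarna, with an interaction of −0.67 (SE 0.18), under the fold threshold.

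LOC_Os11g34230 had 53.3, 55.3, 45.1 and 74.0 CPM in DTY-IL control against 22.1, 20.3, 24.1 and 18.6 CPM in Swarna control, a log2 difference of 1.42 (SE 0.14). Under RDS the values were 43.8, 46.0, 40.2 and 39.9 CPM against 34.7, 28.2, 31.9 and 27.1 CPM, a difference of 0.48 (SE 0.14), so that the genotypes stayed apart with a narrower gap. Its interaction was −0.94 (SE 0.20), just short of the fold threshold. LOC_Os11g34130 was called under control at 1.27 (SE 0.35) although the libraries overlapped, with 28.7 to 89.4 CPM in DTY-IL and 14.7 to 30.6 CPM in Swarna. Without DTY-IL control 4, its highest library, the difference was 0.87, under the fold threshold, and the call was kept in 11 of the 16 fits that left out 1 library.

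LOC_Os11g34110 was called under RDS, with 19.9, 32.8, 21.7 and 22.2 CPM in DTY-IL and 2.88, 6.80, 9.92 and 9.55 CPM in Swarna, a difference of 1.73 (SE 0.27). Under control it had 46.6, 51.1, 42.2 and 33.6 CPM in DTY-IL and 31.3, 30.4, 24.4 and 30.8 CPM in Swarna, a difference of 0.57 (SE 0.26), and again no library of one genotype reached the other. LOC_Os11g34980 was called under RDS at −1.11 (SE 0.28) and had −0.79 (SE 0.29) under control. Without DTY-IL drought 1 its difference under RDS was −0.88. It had 0.656 to 1.92 CPM over the DTY-IL libraries and 2.11 to 3.25 CPM over the Swarna libraries. At these 4 loci the libraries of the genotypes did not overlap in the treatment without the call.

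The range was set by locus number. Just outside its start, the fitted differences were −1.04 (SE 0.53) under control and −1.42 (SE 0.54) under RDS at LOC_Os11g32490 and 0.03 (SE 0.23) and 0.55 (SE 0.24) at LOC_Os11g32500. Just inside, LOC_Os11g32510 had −1.13 (SE 0.79) and 0.19 (SE 0.77), and LOC_Os11g32590 had 0 counts in DTY-IL and 18 over the 8 Swarna libraries. At the end, LOC_Os11g35030 had 0.27 (SE 0.30) and 0.20 (SE 0.27) and LOC_Os11g35040, the last member, 0.91 (SE 0.28) and 2.00 (SE 0.31). Outside it LOC_Os11g35050 had 0.35 (SE 0.60) and 0.85 (SE 0.48), and LOC_Os11g35060 had 0.43 (SE 0.55) and −0.50 (SE 0.45). By counts, LOC_Os11g33010, LOC_Os11g34680 and LOC_Os11g34710 stayed out with 8, 8 and 9 counts, and LOC_Os11g33170, LOC_Os11g34660 and LOC_Os11g34960 came in with 10 each. The 100 tested loci before the block held 4 genotype calls under control and 9 under RDS, the 100 after it 11 and 17, and the rest of chromosome 11 4.49% and 8.01% of 1648 loci. All 8 DTY-IL libraries were above or below all 8 Swarna libraries at 0 loci of the preceding 100 and, among the following 100, above at 5 and below at 2.

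The drought contrasts did not choose the block and were tested. In DTY-IL 18 members were called, of which 10 were upregulated and 8 downregulated, while 23.5% of all tested loci were called (12% up and 11.5% down). In Swarna 28 were called, of which 12 were upregulated and 16 downregulated, beside 32.6% of all loci (15.2% up and 17.3% down). Read against those shares, neither count of members stood above the background. The leaves were measured as bulk tissue, so that fewer cells of a type and less RNA per cell cannot be told apart. Scaled by library size alone the calls split into 15 up against 6 down for DTY-IL, and 25 up against 13 down for Swarna, as the median change over all loci moved from 0.03 to 0.43 and from 0.06 to 0.70. The share of all loci called under that scaling is not given, so these splits are not set against the background. Of the 16 members downregulated in Swarna, 8 had a mean under 10 counts over its libraries, and with edgeR's filterByExpr, which kept 71 members, 18 calls were left (10 up and 8 down). At LOC_Os11g33220, LOC_Os11g33942 and LOC_Os11g33950 the Swarna control mean lay below the floor of 3 counts (bounds of 0.70, 0.86 and 0.84-fold). In DTY-IL the same held at LOC_Os11g34170 and LOC_Os11g34930 (0.77 and 0.68-fold), so these calls show no fold. LOC_Os11g33170 had counts in Swarna control alone. LOC_Os11g32960, LOC_Os11g33180, LOC_Os11g33300 and LOC_Os11g33938 reached the count minimum only with their Swarna control counts, and LOC_Os11g34624 only with its DTY-IL drought counts. The same held at the loci with bounds just named. All these calls are partly set by the count minimum. Without Swarna control 1 the bound at LOC_Os11g33938 was 0.17-fold. Those at LOC_Os11g32960 without Swarna control 3 and at LOC_Os11g33170 without Swarna control 2 were 0.73-fold and 0.47-fold.

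The median fitted drought change of the members was 0.05 in DTY-IL and −0.15 in Swarna, where all tested loci had 0.03 and 0.06. The Swarna median ran from −0.28 to −0.01 with 1 library left out, and with scaling by library size alone it was 0.42, where all loci had 0.70. Members called in both genotypes numbered 12, all in the same direction, beside 18.3% of all loci, and 10 of the 12 had the larger fitted change in Swarna, as had 72.8% of the 5164 loci called in both over the whole table. A further 6 were called in DTY-IL alone and 16 in Swarna alone, beside 5.02% and 14.1% of all loci. Of the 16, LOC_Os11g33170, LOC_Os11g33180 and LOC_Os11g34920 held no count in DTY-IL and could not be called there, and of the 6, LOC_Os11g34624 held none in Swarna. The drought libraries lay apart from the control libraries at 29 members in DTY-IL and at 39 in Swarna, beside 35% and 46.8% of all loci. LOC_Os11g34690 and LOC_Os11g34920, far apart between the genotypes, were called for drought in Swarna alone.

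**Figure D3:**
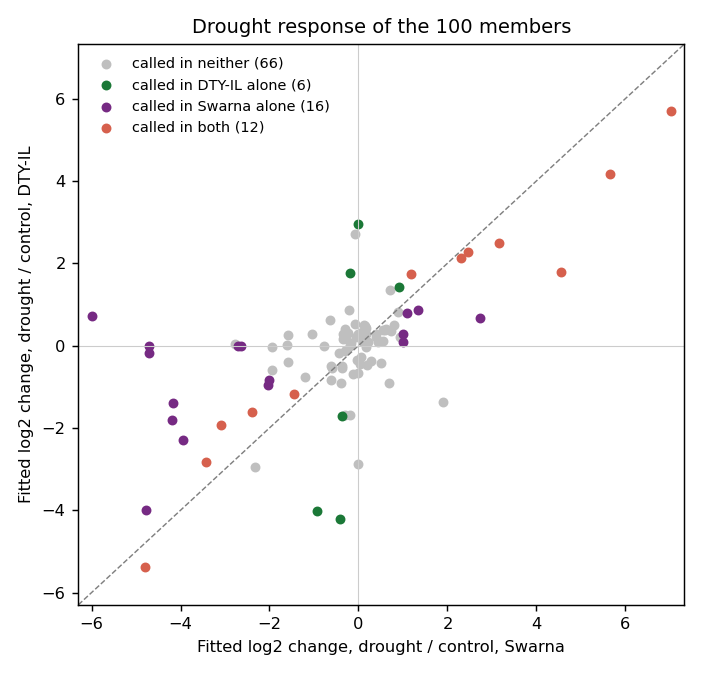
Fitted log2 change from control to drought in Swarna (horizontal) and in DTY-IL (vertical) for the 100 members, 1 point a locus, with the diagonal dashed and colours for the genotype in which a locus was called. Of the 12 loci called in both genotypes, 10 lie on the Swarna side of the diagonal, beside 72.8% of such loci in the whole table; many points at the left, near −4 to −6, are loci with few counts.

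LOC_Os11g32890 had the largest rise in both genotypes. It went from 1.94, 2.19, 2.51 and 0.893 CPM in DTY-IL control to 191, 33.1, 69.6 and 105 CPM in DTY-IL drought, a log2 change of 5.70 (SE 0.47, edgeR adjusted p = 4.17e-08). In Swarna it went from 1.39, 0.554, 0.805 and 1.10 CPM to 167, 129, 122 and 96.1 CPM, a change of 7.03 (SE 0.51, edgeR adjusted p = 5.03e-09). No drought library came near a control library, although the DTY-IL drought libraries themselves lay far apart. The drought libraries of the genotypes overlapped, and the interaction of −1.32 (SE 0.66) was not called.

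LOC_Os11g34460 rose from 9.34, 5.97, 11.3 and 6.10 CPM to 156, 131, 148 and 160 CPM in DTY-IL, an 18.1-fold rise (log2 4.18, SE 0.19, edgeR adjusted p = 5.05e-11). In Swarna it rose from 4.54, 4.19, 3.88 and 3.87 CPM to 213, 218, 210 and 193 CPM, a 50.5-fold rise (log2 5.66, SE 0.20, edgeR adjusted p = 3.95e-12). DTY-IL thus lay above Swarna under control and below it under RDS, with no overlap in either treatment.

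LOC_Os11g32759 rose from 4.36, 5.63, 5.07 and 3.72 CPM to 10.8, 35.2, 20.6 and 16.3 CPM in DTY-IL, a log2 change of 2.13 (SE 0.29, edgeR adjusted p = 1.43e-05). In Swarna it rose from 3.21, 3.09, 4.61 and 2.92 CPM to 13.5, 17.2, 22.6 and 14.7 CPM, a change of 2.29 (SE 0.30, edgeR adjusted p = 5.12e-06). The interaction at this locus was −0.16 (SE 0.41) and was not called. LOC_Os11g34390 rose from 0.761, 0.597, 1.08 and 1.19 CPM to 3.77, 7.19, 4.29 and 5.29 CPM in DTY-IL (log2 2.49, SE 0.32, edgeR adjusted p = 7.29e-06) and by 3.16 (SE 0.35) in Swarna, where it reached 2.63 to 5.67 CPM. LOC_Os11g33970 was named for Swarna at 1.34 (SE 0.46, edgeR adjusted p = 0.0221), but its libraries overlapped, from 1.2 to 4.18 CPM under control and 4.16 to 8.93 CPM under RDS. Without Swarna control 1, control 3, drought 1 or drought 4 its adjusted p was 0.0737, 0.0691, 0.0572 or 0.0686, and the call was lost.

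LOC_Os11g32750 fell from 9.41, 21.5, 19.3 and 10.9 CPM to 2.02, 3.03, 2.53 and 1.02 CPM in DTY-IL, a log2 change of −2.83 (SE 0.41, edgeR adjusted p = 2.83e-05). In Swarna it fell from 15.6, 14.1, 11.1 and 13.3 CPM to 2.45, 0.293, 1.12 and 1.08 CPM, a change of −3.44 (SE 0.43, edgeR adjusted p = 3.29e-06) that was −4.05 without Swarna drought 1. The groups did not overlap in either genotype. LOC_Os11g33050 fell from 5.26, 5.90, 8.78 and 6.77 CPM to 3.66, 1.01, 1.02 and 1.31 CPM in DTY-IL, a change of −1.93 (SE 0.35, edgeR adjusted p = 0.000253), and from 11.6, 9.89, 15.3 and 15.1 CPM to 1.39, 2.05, 1.60 and 1.03 CPM in Swarna, a change of −3.09 (SE 0.35, edgeR adjusted p = 1.17e-06). Without DTY-IL drought 1, its highest drought library, the change in DTY-IL was −2.62. Swarna started higher at this locus and the drought levels overlapped.

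LOC_Os11g34870 stood inside the stretch lower in DTY-IL and fell from 111, 77.9, 96.3 and 89.1 CPM to 23.2, 18.0, 13.3 and 16.3 CPM in Swarna, a change of −2.40 (SE 0.35, edgeR adjusted p = 1.78e-05). In DTY-IL it fell from 57.8, 63.6, 78.8 and 21.7 CPM to 27.7, 7.78, 18.4 and 18.7 CPM, a change of −1.61 (SE 0.34, edgeR adjusted p = 0.00109) with overlapping libraries. LOC_Os11g33270 was called down in both genotypes with few counts, from 57, 3, 13 and 12 counts to 2, 0, 0 and 0 in DTY-IL and from 48, 19, 4 and 55 to 2, 3, 0 and 1 in Swarna. It was at least 8.77-fold and 15.1-fold lower under drought. Without DTY-IL control 1 the first bound was 3.71-fold.

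The interaction is the drought change in DTY-IL minus that in Swarna, which equals the genotype difference under RDS minus that under control. Since it is made of the contrasts that selected the block, it is given as a description with no p-value. By the call rule 4 members were called, all lower, beside 4.91% of all loci (3.52% higher and 1.39% lower), and nothing is read from the comparison. Without DTY-IL control 3 the count was 7 (1 higher and 6 lower) and with scaling by library size alone it was 7 (0 higher and 7 lower), each with the 4 members among them. The median interaction was 0.12 over the members and 0.01 over all loci, and it was −0.03 without DTY-IL drought 2 and −0.14 with library size scaling, where all loci had −0.23.

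LOC_Os11g34460, whose values are given above, had an interaction of −1.48 (SE 0.24), from its lower control level and higher drought level in Swarna. LOC_Os11g34690, one of the loci far higher in DTY-IL, had −2.07 (SE 0.46), or −2.70 without Swarna control 1. Its rise was 6.68-fold in Swarna (edgeR adjusted p = 1.44e-05) from 1 to 5 counts per control library, and 1.59-fold in DTY-IL (edgeR adjusted p = 0.0169). DTY-IL remained the higher genotype by 16.7-fold under RDS.

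LOC_Os11g34160 fell in DTY-IL from 8.79, 11, 6.21 and 13.2 CPM to 2.08, 3.33, 3.17 and 3.42 CPM, a change of −1.70 (SE 0.22, edgeR adjusted p = 9.01e-06). In Swarna it had 5.17, 6.80, 5.71 and 6.70 CPM under control and 4.46, 5.43, 4.53 and 4.34 CPM under RDS, a change of −0.38 (SE 0.22, edgeR adjusted p = 0.167) with overlapping libraries. The interaction of −1.33 (SE 0.31) thus came from a fall in DTY-IL, unlike at the other three loci, where the rise was larger in Swarna.

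LOC_Os11g34700 rose from 0.900, 0.729, 0.342 and 1.49 CPM to 2.24, 3.62, 3.26 and 2.73 CPM in DTY-IL, a change of 1.79 (SE 0.37, edgeR adjusted p = 0.000813). In Swarna it rose from 0.126, 0, 0.0732 and 0.158 CPM, at most 2 counts in a library, to 2.02, 1.76, 2.77 and 2.63 CPM, a rise of at least 10.4-fold (edgeR adjusted p = 9.61e-07). The interaction was −2.75 (SE 0.67), a fitted value that depends on the prior count because Swarna control was nearly empty. This locus was called for genotype under control, where DTY-IL was at least 3.92-fold higher, and the drought libraries of the genotypes overlapped.

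**Figure D4:**
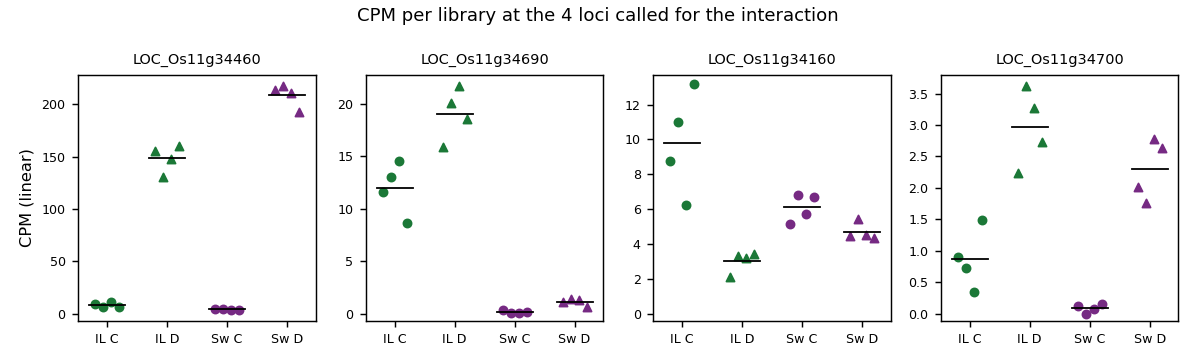
CPM on a linear axis in every library at the 4 loci called for the interaction, with bars at the mean of 4 libraries and groups abbreviated as IL for DTY-IL, Sw for Swarna, C for control and D for drought. LOC_Os11g34460 rises in both genotypes and further in Swarna, LOC_Os11g34690 stays far higher in DTY-IL, LOC_Os11g34160 falls in DTY-IL, and LOC_Os11g34700 starts near 0 in Swarna control and reaches 1.76 to 2.77 CPM under RDS.

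The 4 most counted members, LOC_Os11g34450, LOC_Os11g32880, LOC_Os11g34460 and LOC_Os11g34350, lay in the first 72 and were not called for genotype in either treatment. LOC_Os11g34450 had 257, 262, 249 and 267 CPM in DTY-IL under control and 189, 219, 207 and 241 CPM in Swarna control, a log2 difference of 0.27 (SE 0.20). Under drought it had 440, 219, 252 and 407 CPM in DTY-IL, overlapping its control libraries, and 460, 313, 300 and 339 CPM in Swarna, a rise by 0.72 (SE 0.20, edgeR adjusted p = 0.00609) under the fold threshold.

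LOC_Os11g32880 had 201, 195, 159 and 195 CPM in DTY-IL under control and 165, 268, 255 and 219 CPM under RDS, a change of 0.28 (SE 0.15, edgeR adjusted p = 0.164). In Swarna it rose from 144, 122, 124 and 136 CPM to 273, 244, 309 and 229 CPM, a change of 1.00 (SE 0.16, edgeR adjusted p = 3.41e-05). The call was kept in 10 of the 16 fits that left out 1 library, and the interaction of −0.73 (SE 0.22) was not called. LOC_Os11g34350 ranged from 101 to 127 CPM over the DTY-IL libraries and, in Swarna, from 61.6 to 88.4 CPM under control and 97.5 to 118 CPM under RDS. At these 3 loci Swarna control had the lowest mean of the 4 groups.

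Among members with a mean of at least 50 counts in a group, the median coefficient of variation was 16.1% in DTY-IL under control and 17.7% under RDS, and 13.8% and 14.4% in Swarna, beside 13.8%, 17.5%, 14.1% and 14.6% over all loci of that depth. LOC_Os11g32650 and LOC_Os11g33394, chosen after their values were seen, had the highest coefficients of these members, the former at 86.9% in DTY-IL drought and 101% in Swarna control and the latter at 69.7% in DTY-IL control and 98.5% in Swarna drought. LOC_Os11g32650 had 4.08, 2.39, 3.88 and 2.01 CPM in DTY-IL under control and 4.15, 3.03, 22.7 and 11.8 CPM under RDS, and 3.72, 2.45, 0.952 and 11.5 CPM in Swarna under control and 2.06, 7.97, 4.16 and 2.17 CPM under RDS. Its drought call in DTY-IL (log2 1.75, SE 0.67, edgeR adjusted p = 0.0459) was made with overlapping libraries. It was kept in 6 of the 16 fits that left out 1 library, and without DTY-IL drought 3 the change was 1.03. LOC_Os11g33394 had 68.6, 120, 30.5 and 27.8 CPM in DTY-IL under control and 117, 160, 4.34 and 67.9 CPM under RDS, and 2.65, 28.7, 15.2 and 48.0 CPM in Swarna under control and 41.6, 2.25, 6.08 and 52.8 CPM under RDS. Its highest library was 37.0 times its lowest within DTY-IL drought. LOC_Os11g33970 was highest in the same library as LOC_Os11g33394 in all 4 groups and lowest in the same library in 3 of them. LOC_Os11g33394 was called in none of the 5 contrasts.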

How the data were processed

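Flag-leaf RNA was sequenced as 16 paired-end Illumina libraries. The authors trimmed the reads with Trimmomatic, quantified them with Salmon 0.7.2 in quasi-mapping mode against transcripts of the japonica genome IRGSP-1.0 with the MSU annotation release 7, and aggregated them to genes with tximport. The deposited table holds the expected count (estimated count) of each locus and library in whole numbers, without normalization. The submitters' processing notes also list bcl2fastq 2.16.0.10, Cufflinks 2.2.1, R 3.3.3 and DESeq2 1.14.1. A locus whose alleles differ from the japonica reference can lose reads in that step. Tables of the authors' 4 contrasts were deposited too (mean normalized count, log2 fold change, its standard error, statistic, p-value and adjusted p-value) and were not used.

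Loci with at least 10 counts over the 16 libraries (28283 of 55801) entered 1 quasi-likelihood model (edgeR 4.0.16, R 4.3.3, TMM) of the 4 groups taken from the sample titles. Tests were two-sided and adjusted by Benjamini-Hochberg over all tested loci. The standard error is the log2 change divided by the square root of its F statistic. The log2 CPM used a prior count of 2. CPM is not scaled by gene length, so levels are compared between libraries and not between loci. Where no library of a group exceeded 3 counts, folds were taken against 3 counts per library. The SE covers counting error and the spread between replicate libraries, whereas the floor is a fixed limit that measures no error. Plots were drawn with Python 3.11.15 and matplotlib 3.10.9.

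The members, stretches and lists were chosen with earlier results of these data known. Named loci were the members called for genotype in both treatments without overlap of the 8 and 8 libraries and with a mean of at least 50 counts in the higher genotype (up to 8 per direction), the 4 largest drought changes per direction and genotype at that depth, the members called for the interaction, the 4 most counted members, and up to 4 called for genotype in 1 treatment at that depth. Loci with few counts named beside them were chosen after their values were seen.

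Fits were tested on simulated data of 28283 loci with 200 changed by a log2 change of 2. Only deeper loci, averaging 50 or more counts per library, were eligible to be changed. Of the 200, 194 were recovered for drought in DTY-IL, 192 for drought in Swarna and 181 for the interaction. How often a change would be found at weaker loci, many members among them, was not tested. False calls numbered 5, 9 and 8. All other simulated loci were unchanged in the contrast, and counts were drawn with the dispersions estimated from these data. In the data 23.5% and 32.6% of loci were called for drought in DTY-IL and Swarna. Recovery and false calls with so many changed loci were not tested. The lowest chi-square per locus between libraries of a group was 12.4, so no pair was 1 library deposited again. Replicate numbers were checked for pairing by the correlation of deviations from group means. Those of the titles gave −0.0663 to 0.222. Those of the sample descriptions gave −0.198 to 0.222 and reached 0.154, 0.222 and 0.147 in all 3 pairs of DTY-IL drought with Swarna drought. The pots were set out in randomized blocks, and whether either number marks a block is not stated. The values and SE in the text come from the model without a block and take no account of pairing. Fits with a block were alternatives. Alternatives were RLE size factors, scaling by library size, fitting without a count minimum, filterByExpr, DESeq2 1.42.0, limma-voom (limma 3.58.1), a replicate block by either number, and each library left out.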

Additional observations from a re-analysis of the deposited data

Results flagged for a closer look

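In the 101 groups of 4 libraries examined at the named loci, 6 held a library whose gap to the nearest other, divided by the range of log2 CPM of the group, exceeded Dixon's 95% critical value for 4 values. Chance alone gives such a library in about 1 in 20 groups. Swarna drought 3 lay low at LOC_Os11g34760 (gap ratio 0.915, 0.960 CPM against 1.49 to 1.55 CPM) and at LOC_Os11g34880 (gap ratio 0.863, 4.69 CPM against 5.96 to 6.19 CPM). Swarna control 4 lay low at LOC_Os11g34920 (gap ratio 0.950, 7.10 CPM against 12.4 to 12.8 CPM) and Swarna control 3 at LOC_Os11g34110 (gap ratio 0.876, 24.4 CPM against 30.4 to 31.3 CPM). In DTY-IL, drought 1 lay low at LOC_Os11g34160 (gap ratio 0.846, 2.08 CPM against 3.17 to 3.42 CPM) and control 3 at LOC_Os11g32880 (gap ratio 0.866, 159 CPM against 195 to 201 CPM).

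The fitted drought response differed between DTY-IL and Swarna past the thresholds of the interaction call at 4 named loci, with a log2 difference of −1.48 at LOC_Os11g34460, −2.07 at LOC_Os11g34690, −1.33 at LOC_Os11g34160 and −2.75 at LOC_Os11g34700. Each call was kept in the 24 alternatives. The interaction is made of the genotype contrasts that selected the block, so these values are a description.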

How the results depend on the processing

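Across the 24 alternatives the members called ranged from 14 to 21 for drought in DTY-IL, 18 to 38 for drought in Swarna, 16 to 22 for genotype under control, 16 to 18 for genotype under RDS and 4 to 7 for the interaction. The shares of all loci called under each alternative are not given, so no count under an alternative is set against the background. With filterByExpr, which tested 71 members, 18 were called for drought in Swarna, all of them among the 28. The interaction gave 7 calls with library size alone and 7 without DTY-IL control 3. With library size alone the median change over the members was 0.46 for drought in DTY-IL, 0.42 in Swarna and −0.14 for the interaction, where all loci had 0.43, 0.70 and −0.23, and the signs of the medians in Swarna and of the interaction turned. DESeq2 called 19 members for drought in Swarna. Leaving out each library in turn gave 15 to 19, 23 to 28, 16 to 21, 17 to 18 and 4 to 7 calls in the order above, and medians from 0 to 0.06, −0.28 to −0.01, 0.03 to 0.17, 0.04 to 0.16 and −0.03 to 0.17.

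With a replicate block by title number 16, 26, 17, 17 and 4 members were called, and by description number 15, 26, 17, 16 and 5. The block moved none of these counts by more than 1.5 times and changed none of the drought or interaction calls for which a locus was named by rule. By description number, drought calls at LOC_Os11g34624, LOC_Os11g33170 and LOC_Os11g33180 were lost and those at LOC_Os11g34110 in DTY-IL and LOC_Os11g33080 in Swarna gained, and with either block the genotype calls at LOC_Os11g32590 were lost. At named loci 20 drought and interaction calls were refitted in the 24 alternatives. Of the 480 refits 476 kept the call and 4 lost it, all at LOC_Os11g33970 in Swarna without 1 library. The loci were named for these calls, and the 4 interaction calls among the 20 are a description. The genotype differences at named loci kept their sign in all 686 values, among them 14 lower bounds whose sign was set by the higher group. Of the 24 values marked as moved, 14 were these lower bounds, marked so without a comparison with the spread. The others moved past a limit set from the SE and were loci with a nearly empty genotype. The cause was not tested for the remaining changes. Depth limits the lower bounds, which are set by 3 counts per library.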
